A study of Mus musculus with 899 samples.

Results

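The miR-99, miR-100 and miR-125 families are represented here by 5 mature miRNA of mouse plasma, mmu-miR-99a-5p, mmu-miR-99b-5p, mmu-miR-100-5p, mmu-miR-125a-5p and mmu-miR-125b-5p. They were chosen by name from the 1915 miRNA of the count table, and all 5 were among the 483 miRNA that passed the filter on low counts. Plasma was sequenced in 402 C3H and 497 C57Bl/6 samples of 196 mice of the strains C3Hf/Sed/Kam (C3H) and C57Bl/6. In C3H, 64 mice received whole-thorax irradiation and 32 were sham irradiated, and in C57Bl/6 the numbers were 68 and 32. The irradiation was a single X-ray dose of about 14 Gy to the thorax with the rest of the body shielded. The study's methods give gnotobiotic mice of 8 to 12 weeks (males up to 10 weeks, females from 10 weeks) and anaesthesia for the exposure, and the labels give no other treatment or genetic change. Each mouse was bled 14 days before irradiation (PT), at day 2 or day 5 after it (D2, D5; 96 mice each, and no mouse at both) and monthly from month 1 (M1), to M4 in C3H and M6 in C57Bl/6, except that 4 irradiated C57Bl/6 mice, all females of G1, have no PT, D2 or D5 sample. The mice came in numbered sets, G2 and G4 of C3H and G1 and G3 of C57Bl/6, so a set never holds both strains, and G3 and G4 have no samples after M1. Groups of one strain, treatment and time point held 8 to 68 samples.

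A miRNA is a short RNA that guides silencing proteins to messenger RNAs, and the bases near its 5′ end, the seed, contribute most to the choice of target. miR-99 and miR-100 share one seed and are known for targeting Mtor and other growth signalling genes. miR-125 is the vertebrate relative of the worm timing gene lin-4, is active in blood stem cells and has Trp53 among its described targets, and in the genome the families lie beside let-7 genes in conserved clusters. Plasma holds miRNA released from many tissues and from blood cells, so a lower level there cannot be told apart as fewer releasing cells, less release per cell or faster loss from the circulation.

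The 5 mature sequences are shown because their shared seeds define the families and because near-identical sequences limit how reads can be assigned. They are from RefSeq (GRCm38.p6), 5′ to 3′, with the seed (bases 2 to 8) in capitals.
miR-99a-5p: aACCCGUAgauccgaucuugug
miR-100-5p: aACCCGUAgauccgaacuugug
miR-99b-5p: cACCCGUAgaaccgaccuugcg
miR-125a-5p: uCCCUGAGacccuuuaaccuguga
miR-125b-5p: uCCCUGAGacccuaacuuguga

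The seed ACCCGUA occurred in 3 mature miRNA of the RefSeq table, which are the 3 members of the miR-99 and miR-100 group. The seed CCCUGAG occurred in 5, of which miR-351-5p had 30631 reads in the whole series against 31104286 for miR-125b-5p, and miR-6367 and miR-6394 had 0. miR-100-5p and miR-99a-5p were identical at 21 of 22 bases and differed only by A16U (miR-100-5p base first, counted from the 5′ end). miR-99b-5p differed from miR-99a-5p at 4 positions, A1C, U11A, U16C and U21C (miR-99a-5p base first). miR-125a-5p and miR-125b-5p shared their first 13 bases and 21 of 24 aligned columns. A read with 1 sequencing error at base 16 could therefore pass between miR-99a-5p and miR-100-5p, and levels of miR-100-5p, the rarer of the pair, are uncertain to that extent.

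The members lie in 3 clusters, given here on GRCm38 (mm10, the build named in the submitters' processing notes) and all on the plus strand. miR-99a-5p is at chr16:77598940-77598961, followed by let-7c-1 and by the Mir125b-2 copy of miR-125b-5p at chr16:77646279-77646300, and the GENCODE annotation places the whole span of 47408 bases inside the noncoding host gene Mir99ahg. miR-100-5p is at chr9:41531437-41531458, followed by let-7a-2 and the Mir125b-1 copy of miR-125b-5p at chr9:41581940-41581961, inside the noncoding genes 3110039I08Rik and Gm49317. miR-99b-5p at chr17:17830194-17830215 and miR-125a-5p at chr17:17830817-17830840 flank let-7e within a span of 692 bases inside the protein-coding gene Spaca6. The precursor of miR-125a-5p overlaps an annotated exon of Spaca6, whereas those of miR-99b-5p and let-7e lie in an intron. The mature miR-125b-5p of the 2 copies is one sequence and one count. The opposite arms differ between the copies, and miR-125b-2-3p held 81.1% of their reads (40066 against 9327 for miR-125b-1-3p) and was the higher of the pair in all but 24 samples.
miR-125b-1-3p: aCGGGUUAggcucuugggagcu
miR-125b-2-3p: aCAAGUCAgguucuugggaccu

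Libraries held between 206490 and 11814515 reads (median 1475030), and group medians lay between 855370 and 2882700. Irradiated groups had a lower median than sham groups at each time after irradiation except C3H M4 and C57Bl/6 D5 and M6. A total of 3 reads corresponded to 14.5 CPM (reads scaled to a common library size) in the shallowest sample and to 2.03 CPM at the median depth. Reads were not taken as independent molecules, so such limits cover counting error only. Levels below are log2 CPM after TMM scaling with a prior count of 2, on which a miRNA with 0 reads has the value 0.23. Mature miRNA are of nearly one length, so levels were compared between miRNA without a length term, although ligation and amplification bias between sequences was not measured.

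The means of the 5 members spanned 10.41 units of log2 CPM and kept one order. miR-125b-5p was among the most abundant miRNA of plasma, with 2.04% of all reads, rank 9 and a mean log2 CPM of 14.09 over all samples. miR-125a-5p followed with 0.0738% of reads (rank 66, 9.35), and miR-99b-5p with 0.0330% (rank 99, 8.19). miR-99a-5p held 0.00618% (rank 140, 5.58, 0 reads in 2 samples), and miR-100-5p 0.00180% (rank 206, 3.68, 0 reads in 32 samples, 3.56%). This order held for the group means in 32 of 32 groups, and each of the 4 steps was larger than the SD between mice in all 32. The step from miR-125b-5p to miR-125a-5p, which share a seed, was 4.12 to 5.02 on the log2 scale. The step from miR-125a-5p to its cluster neighbour miR-99b-5p was the smallest, 0.93 to 1.44, and held in all but 3 samples. miR-99a-5p exceeded miR-100-5p in all but 13 samples, with group steps of 1.49 to 2.35. The plot of levels over time shows these layers in both strains.

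**Figure D1:**
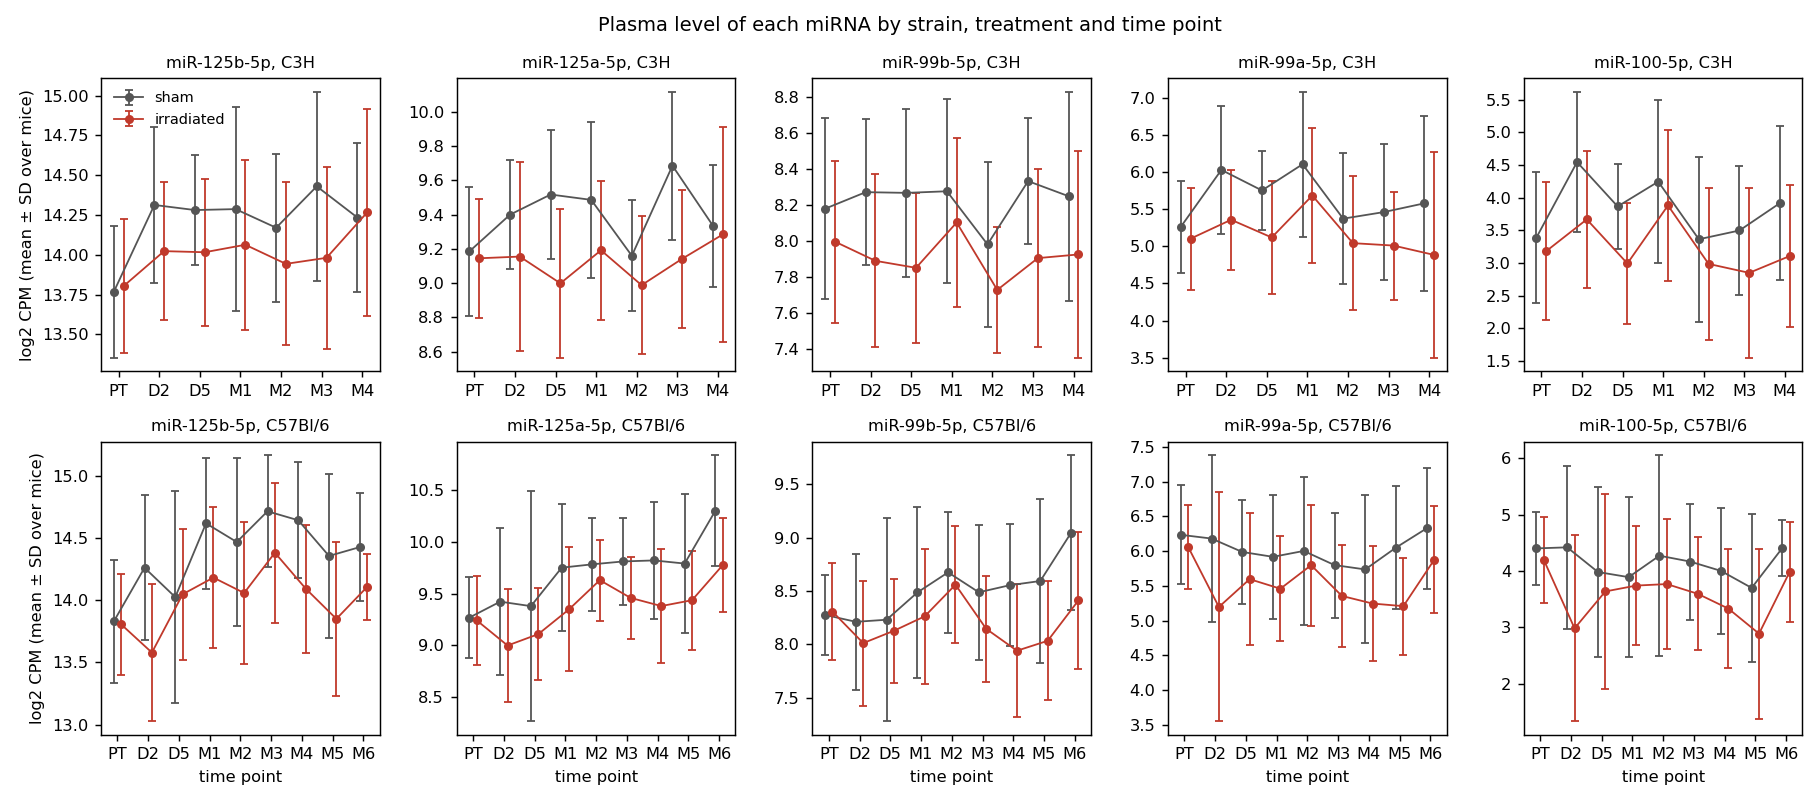
Mean level (log2 CPM, TMM, prior count 2) of the 5 miRNA against sampling time in C3H and C57Bl/6, for irradiated and sham mice, with bars of 1 SD over the 8 to 68 mice of a group. The curves keep the order miR-125b-5p, miR-125a-5p, miR-99b-5p, miR-99a-5p, miR-100-5p at every time, and irradiated means lie below sham means at most times after irradiation.

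Before any treatment, 96 mice of each strain could be compared, and the 2 least abundant members differed most between strains. miR-99a-5p had a lowest, median and highest level of 2.73, 5.23 and 6.58 in C3H and of 4.98, 6.03 and 8.32 in C57Bl/6. It was higher in C57Bl/6 by 1.01 (SE 0.13) on the log2 scale, a 2.02-fold difference (edgeR quasi-likelihood test, Benjamini-Hochberg adjusted p = 6.01e-13). The ranges overlapped, with C3H reaching lower and C57Bl/6 higher. miR-100-5p had 0.23, 3.32 and 5.28 in C3H and 1.45, 4.27 and 5.80 in C57Bl/6, and was higher in C57Bl/6 by 0.94 (SE 0.19, adjusted p = 2.78e-06). miR-99b-5p had 6.25, 8.05 and 9.20 in C3H and 7.34, 8.25 and 9.32 in C57Bl/6, and the difference of 0.19 (SE 0.08, adjusted p = 0.0402) passed the threshold only narrowly. The miR-125 members had nearly the same medians in both strains, 9.18 and 9.23 for miR-125a-5p and 13.86 and 13.83 for miR-125b-5p. Their differences were 0.10 (adjusted p = 0.26) and 0.04 (adjusted p = 0.699). Of the 483 miRNA tested, 50.7% passed in this comparison, so 3 of 5 members passing is near that background.

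**Figure D2:**
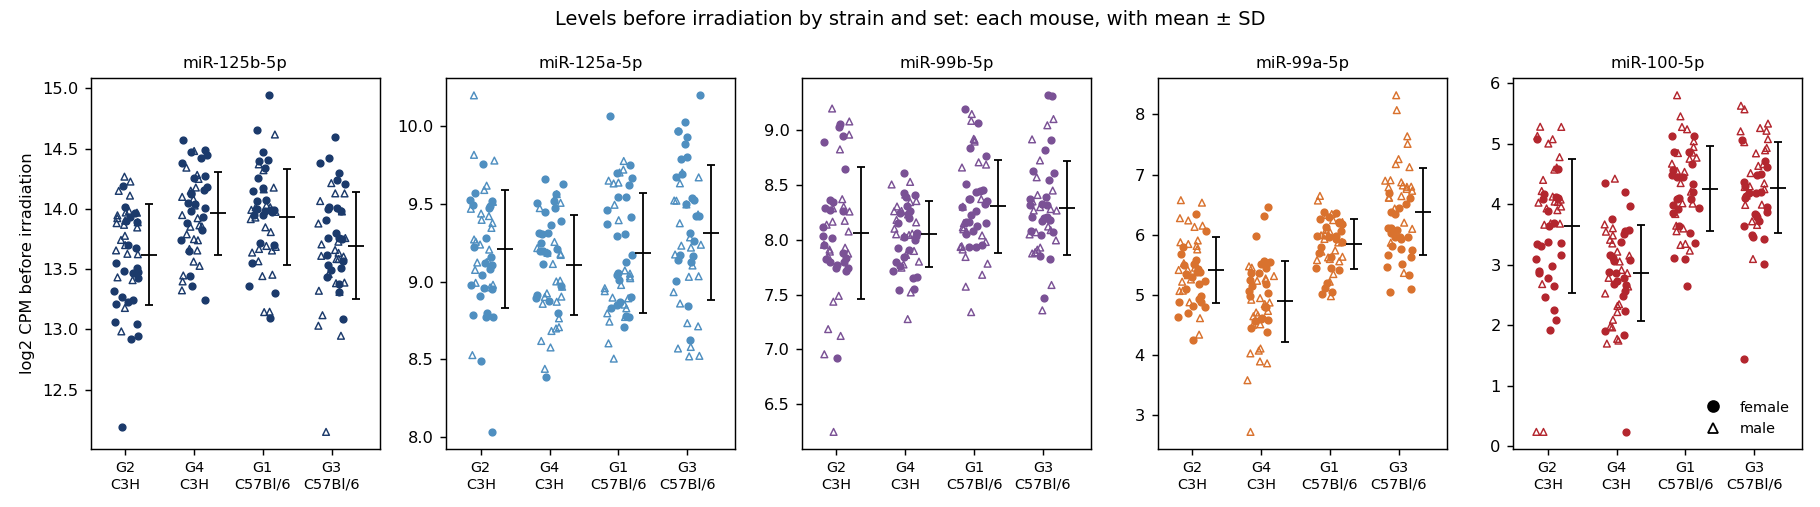
Level (log2 CPM) of each of the 5 miRNA in every mouse 14 days before irradiation, by strain and set. miR-99a-5p and miR-100-5p lie higher in the C57Bl/6 sets G1 and G3 than in the C3H sets G2 and G4, and miR-125a-5p and miR-125b-5p overlap throughout.

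The strain difference of the 2 rare members was seen in both pairs of sets. Both miR-99a-5p and miR-100-5p passed when G1 was set against G2 and when G3 was set against G4. miR-99b-5p passed with G3 against G4 only. miR-125b-5p was higher in G1 than in G2 but lower in G3 than in G4 (-0.26, adjusted p = 0.0447), so its direction between strains depended on the sets. Each set holds one strain, and strain and set cannot be told apart within a pair.

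Most other RNAs of the 3 clusters that passed in this comparison were lower in C57Bl/6. Of 10 tested of 12 cluster partners and opposite arms, 1 was higher in C57Bl/6 and 6 were lower. With the related miRNA outside the clusters (miR-10a-5p, miR-10b-5p, miRNA with a member's seed and the arm let-7c-2-3p), 14 of 18 were tested, of which 4 were higher and 7 lower. Of all miRNA tested, 50.7% passed in either direction. let-7c-5p, which lies between miR-99a-5p and miR-125b-2 on chromosome 16, was lower in C57Bl/6 by -0.91 (SE 0.12, adjusted p = 3.37e-13), opposite to its neighbour miR-99a-5p. Of the opposite arms, miR-99a-3p was lower (-1.49), as were miR-125a-3p (-0.97), miR-125b-1-3p (-0.73) and miR-125b-2-3p (-0.75), whereas miR-99b-3p was higher (0.42). miR-99a-3p and miR-125a-3p were near the floor, with 0 reads in 64.4% and 66.7% of all samples. Their differences (SE 0.38 and 0.37) therefore rest on few reads. miR-10a-5p, whose sequence resembles miR-100-5p (20 of 23 aligned columns) but which has another seed, was higher by 0.81 (SE 0.10, adjusted p = 9.55e-14).

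Sham mice show how the members differed between times without irradiation. Age, repeated bleeding, handling and set cannot be told apart there, since PT to M1 hold both sets and later times only G1 or G2. Terminal samples were taken from the heart by the study's methods and are not marked in the labels, so the bleeding site cannot be told apart either. The members that passed were not the same in the 2 strains, a difference that was not itself tested. Over all later times against PT, 4 members changed in C3H by the F test of edgeR, miR-99a-5p (adjusted p = 2.24e-05), miR-100-5p (0.000191), miR-125a-5p (0.00958) and miR-125b-5p (0.000229), and miR-99b-5p did not pass (0.701). In C57Bl/6 the 3 that changed were miR-125a-5p (2.41e-09), miR-125b-5p (1.92e-08) and miR-99b-5p (2.39e-05), with miR-99a-5p (0.29) and miR-100-5p (0.125) past no threshold. Of all miRNA tested, 46% passed in C3H and 62.9% in C57Bl/6. The same mice enter several times, and this test treats their samples as independent.

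miR-125b-5p of sham C3H mice was above PT at each of the 6 later times, by 0.42 to 0.72 on the log2 scale, and all 6 steps passed. In sham C57Bl/6 mice the 8 steps were 0.31 to 0.88, of which all but D5 (0.31, adjusted p = 0.125) passed. miR-125a-5p of sham C57Bl/6 mice rose to a median of 10.37 at M6 from 9.27 at PT, a step of 1.08 (SE 0.14, adjusted p = 1.03e-11). miR-99b-5p, from the same cluster, stood 0.89 above PT at M6 (SE 0.16, adjusted p = 7.69e-07). In sham C3H mice miR-125a-5p was above PT at M1 (0.32, adjusted p = 0.029) and M3 (0.51, adjusted p = 0.0038). In the same mice miR-99a-5p was above PT by 0.95 at D2, 1.10 at M1 and 0.83 at M4, and miR-100-5p by 1.41 at D2, 1.18 at M1 and 0.89 at M4, and all 6 of these steps passed. Neither passed at D5, M2 and M3 (0.16 to 0.45). These steps in control mice are of the size of the differences between irradiated and sham mice.

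Irradiated mice had lower levels than the sham mice bled at the same time in their strain for nearly every member. The difference was below 0 in 67 of 70 comparisons (28 of 30 in C3H, 39 of 40 in C57Bl/6), with a median of -0.41 on the log2 scale in C3H and -0.45 in C57Bl/6. Over all 483 miRNA in the same 14 contrasts, 54.6% of differences were below 0 and the median of a contrast lay between -0.08 and 0.01. The test was passed in 15 of the 70, all with the irradiated mice lower, 4 in C3H and 11 in C57Bl/6. The levels of irradiated and sham mice overlapped in all 70. The 70 values are not independent, since a mouse enters at several times and for all 5 members. At PT, before exposure, most members already had a slightly lower mean in mice assigned to irradiation than in those assigned to sham. For miR-100-5p these means were 3.18 against 3.39 in C3H and 4.20 against 4.40 in C57Bl/6. Only miR-125b-5p in C3H (13.80 against 13.77) and miR-99b-5p in C57Bl/6 (8.31 against 8.28) had the higher mean. This PT difference was not tested.

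**Figure D3:**
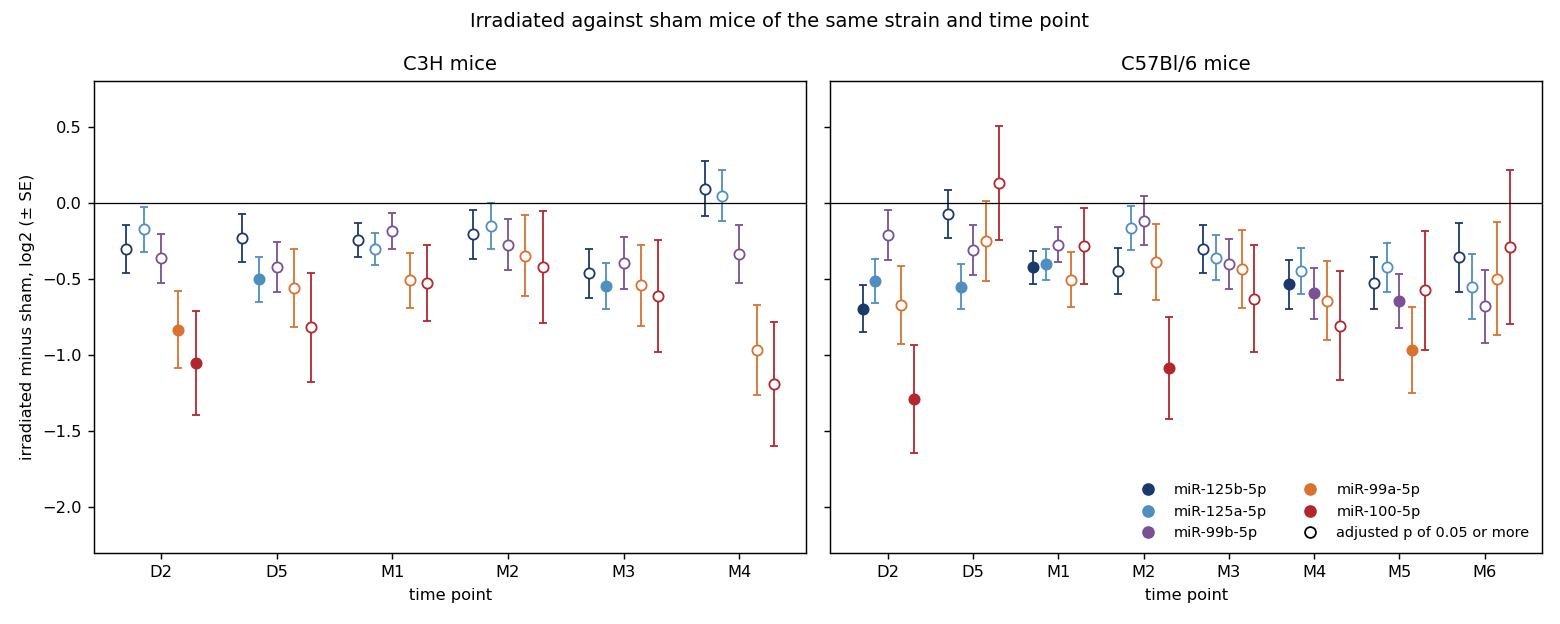
Difference of irradiated minus sham mice (log2, with bars of 1 SE) for each of the 5 miRNA at each time after irradiation in C3H and C57Bl/6. Filled points are those with an adjusted p under 0.05 in the edgeR quasi-likelihood test, 4 in C3H and 11 in C57Bl/6, and all but 3 of the 70 points lie below 0.

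Among all miRNA tested, the share that passed was 4.97% at D2, 3.11% at D5, 3.31% at M1, 0.621% at M2, 2.07% at M3 and 0.414% at M4 in C3H. The members that passed there numbered 2 of 5 at D2, 1 at D5, 1 at M3 and 0 at M1, M2 and M4. In C57Bl/6 the share was 6.63% at D2, 14.1% at D5, 3.73% at M1, 3.31% at M2, 1.66% at M3, 4.76% at M4, 3.52% at M5 and 0.414% at M6. Members that passed numbered 3 of 5 at D2, 1 at D5, 2 at M1, 1 at M2, 2 at M4, 2 at M5 and 0 at M3 and M6. At M6 only 8 irradiated mice remained against 16 sham mice, and the members' differences there were -0.29 to -0.68.

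In C3H at D2 the calls fell on the rare members that share the ACCCGUA seed. miR-99a-5p had a lowest, median and highest level of 3.60, 5.40 and 6.62 in 32 irradiated mice and of 4.83, 5.87 and 8.21 in 16 sham mice. The ranges overlapped, with 24 of 32 irradiated mice below the sham median, and the difference was -0.83 (SE 0.25, adjusted p = 0.0241), 43.9% lower. miR-100-5p had 1.07, 3.80 and 5.16 against 2.80, 4.46 and 7.15, with 22 of 32 below the sham median and a difference of -1.05 (SE 0.34, adjusted p = 0.0466). With each set and sex given its own mean, a fit chosen after the sets were seen to differ, the miR-99a-5p difference still passed (-0.68, adjusted p = 0.0219) and that of miR-100-5p no longer did (-0.86, adjusted p = 0.0602). With the mouse as a random replicate block, fitted in limma-voom in place of edgeR, both had an adjusted p of 0.0626. Without the G2 males the 2 differences were -0.33 (adjusted p = 0.635) and -0.53 (adjusted p = 0.571), and the C3H sham males of G2 at D2 had the highest means of the strain, 7.22 ± 0.70 and 5.96 ± 0.81 (SD, n = 4).

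At the later C3H times the calls were on miR-125a-5p. At D5 it had 8.03, 8.98 and 10.07 in 32 irradiated mice and 9.11, 9.43 and 10.38 in 16 sham mice, and 28 of 32 irradiated mice (87.5%) were below the sham median. The difference was -0.50 (SE 0.15, adjusted p = 0.0244). At M3 it had 8.39, 9.16 and 10.06 in 27 irradiated and 9.01, 9.73 and 10.42 in 16 sham mice, with 24 of 27 below the sham median and a difference of -0.55 (SE 0.15, adjusted p = 0.0179). Both passed with a mean for each set and sex (-0.51, adjusted p = 0.00262 at D5 and -0.51, adjusted p = 0.00837 at M3) and with the mouse as a replicate block. At M4 miR-125a-5p and miR-125b-5p were at 0.05 and 0.09, the only C3H differences above 0, while miR-99a-5p was at -0.97 (adjusted p = 0.136) and miR-100-5p at -1.19 (adjusted p = 0.191). Without the G2 females or without the G2 males, which after M1 leaves one sex, no C3H difference of a member passed.

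In C57Bl/6 at D2 the abundant members were lower as well. miR-125b-5p had a lowest, median and highest level of 12.56, 13.43 and 14.87 in 32 irradiated mice and of 13.33, 14.19 and 15.47 in 16 sham mice, and 27 of 32 irradiated mice were below the sham median. The difference was -0.69 (SE 0.16, adjusted p = 0.000454), 38.2% lower. This was the one difference of a member that also passed as a change from each mouse's own PT sample. miR-125a-5p had 7.92, 9.04 and 9.91 against 8.54, 9.22 and 11.08, with 19 of 32 below the sham median and a difference of -0.51 (SE 0.15, adjusted p = 0.0114). miR-100-5p had 0.23, 3.20 and 6.40, with 0 reads in 6 irradiated mice, against 1.53, 4.55 and 7.01. Irradiated libraries were shallower here, with a median of 859420 reads against 1301000 in sham libraries. The part of depth was not tested. The difference of miR-100-5p was -1.29 (SE 0.35, adjusted p = 0.00894). All 3 passed with a mean for each set and sex, where miR-99a-5p passed too (-0.82, adjusted p = 0.0042 against 0.0827 without those means), as it did with the mouse as a replicate block (adjusted p = 0.0464).

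The D2 differences in C57Bl/6 were uneven between the sets and sexes. For miR-100-5p the mean of irradiated mice was below that of sham mice in 4 of 4 combinations of set and sex, by -2.98 to -0.47, and for miR-125b-5p in 4 of 4, by -1.42 to -0.05. For miR-125a-5p it was lower in 3 of 4, with the G1 males at 0.11. The largest differences for the 3 miRNA were those of the G1 females, whose sham mice had 14.81 ± 0.53 for miR-125b-5p (SD, n = 4) against 13.39 ± 0.48 in irradiated mice (n = 8). Without the G1 females the difference was -0.41 (adjusted p = 0.192) for miR-125b-5p, -0.18 (adjusted p = 0.618) for miR-125a-5p and -0.80 (adjusted p = 0.285) for miR-100-5p. Without the G3 females the 3 lost the call as well (adjusted p = 0.147, 0.278 and 0.156).

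At D5 in C57Bl/6 only miR-125a-5p passed, and its direction was not shared by the sets. It had 8.10, 9.17 and 9.92 in 32 irradiated mice and 6.70, 9.43 and 10.96 in 16 sham mice, so the sham range enclosed the irradiated range. The difference over both sets was -0.55 (SE 0.15, adjusted p = 0.00246), and -0.43 (adjusted p = 0.0086) with a mean for each set and sex. With the mouse as a replicate block, fitted in limma-voom in place of edgeR, the adjusted p was 0.181. Without the G1 males the difference was -0.16 (adjusted p = 0.578). In G1, 16 irradiated mice had 8.10, 8.94 and 9.92 against 9.34, 10.08 and 10.96 in 8 sham mice, a difference of -1.15 (SE 0.20, adjusted p = 2.66e-06). In G3 the levels were 8.37, 9.21 and 9.79 against 6.70, 8.81 and 9.97, a difference of 0.35 (adjusted p = 0.244).

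miR-125b-5p split in the same way at D5, and passed in each set in opposite directions. In G1 it had 13.09, 13.85 and 14.36 in irradiated and 14.20, 14.55 and 14.99 in sham mice (-0.75, adjusted p = 0.0128). In G3 it had 13.33, 14.29 and 15.22 in irradiated and 11.92, 13.67 and 14.51 in sham mice (0.70, adjusted p = 0.0134). Over both sets the difference was -0.07. miR-99b-5p was lower in irradiated G1 mice (-0.86, adjusted p = 0.00588) and at 0.32 in G3.

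The difference between the sets at C57Bl/6 D5, G3 minus G1, was itself tested in edgeR after the sets had been seen to differ. It was 1.49 (SE 0.29, adjusted p = 1.91e-05) for miR-125a-5p, 1.46 (SE 0.31, adjusted p = 0.000129) for miR-125b-5p and 1.19 (SE 0.33, adjusted p = 0.00509) for miR-99b-5p. For miR-99a-5p it was 0.85 (adjusted p = 0.258) and for miR-100-5p 0.11 (adjusted p = 0.941). The G1 value of miR-100-5p includes irradiated mouse 1046, with 58 reads of it in a library of 206490 reads (log2 CPM 8.40). On mean log2 CPM, irradiated minus sham mice were at -1.14 and -1.27 in G1 females and males, and at 0.95 and 0.09 in G3. Over both sets the edgeR difference of miR-100-5p was 0.13, yet 24 of 32 irradiated mice were below the sham median. The part of mouse 1046 in these differences was not tested. Of all miRNA, 17.6% passed this test at C57Bl/6 D5, against 0.207% at C57Bl/6 M1, 0% at C57Bl/6 D2 and 0% at C3H D2, D5 and M1, where no member passed by edgeR (at an unadjusted p under 0.05, 48 miRNA at C57Bl/6 D2 and 6, 21 and 16 at the C3H times). The sham females of G3 held the lowest levels. Their 4 values of miR-125b-5p were 11.92, 12.83, 12.93 and 14.51, with total reads of 419427, 424138, 613538 and 1406579, and the value that stood highest came from the deepest library. The stroma miRNA listed further on held 0.716%, 0.755% and 4.39% of reads (lowest, median, highest) in these 4 mice. Low depth, set and sex coincide in them, and their part in the result was not tested.

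**Figure D4:**
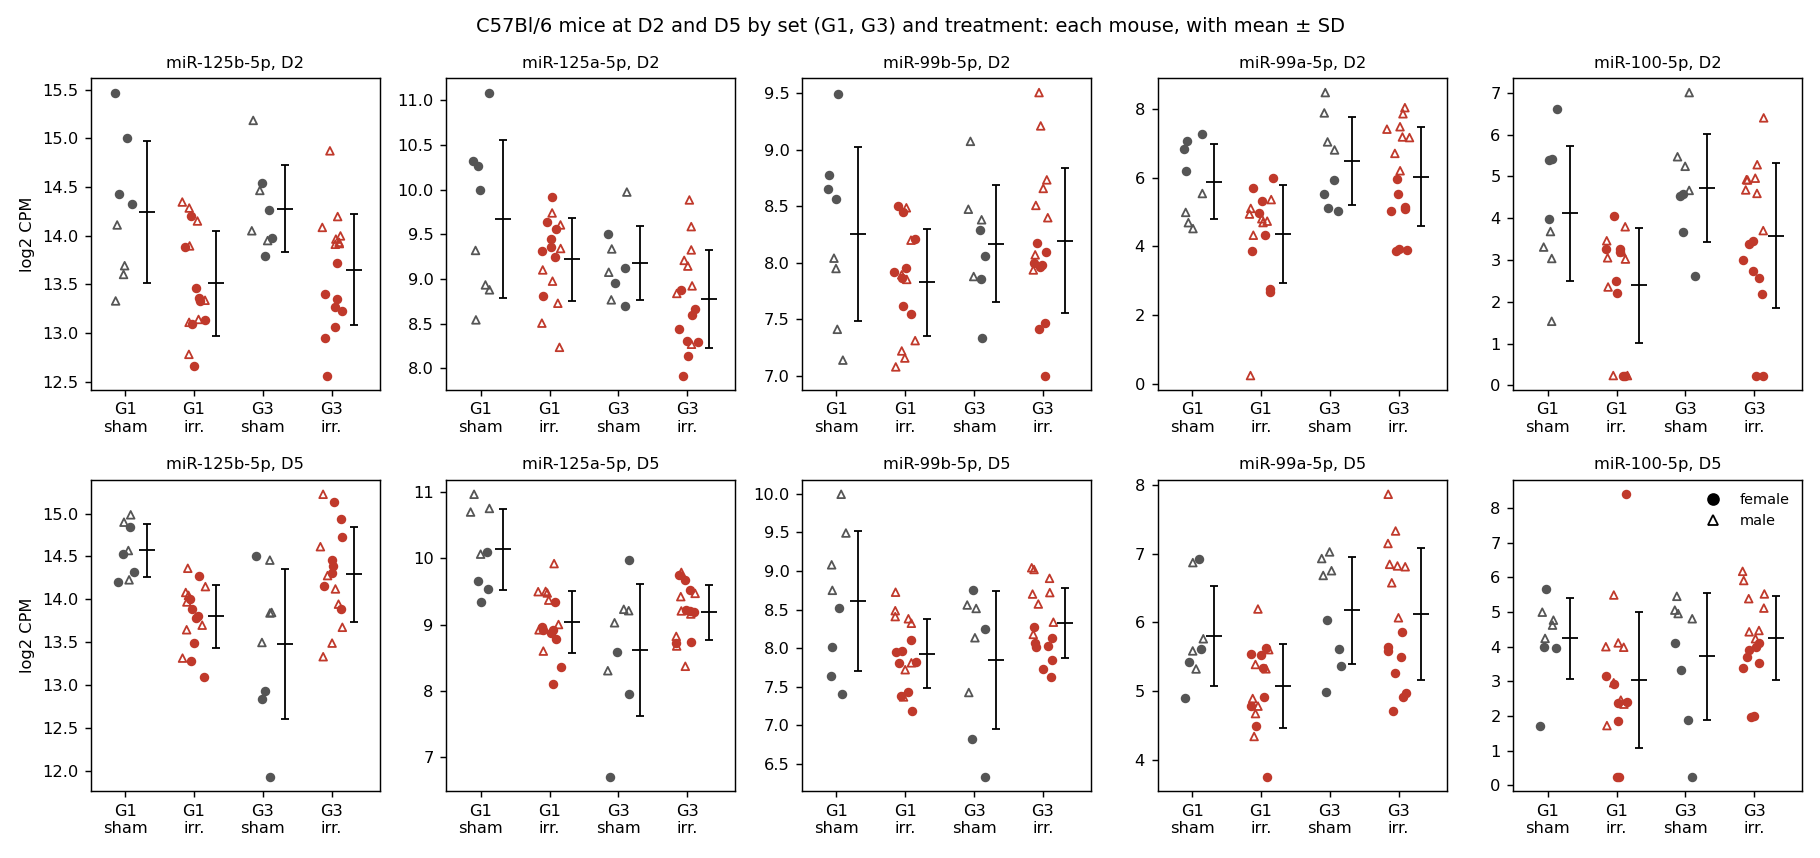
Level (log2 CPM) of the 5 miRNA in every C57Bl/6 mouse at D2 and D5, by set (G1, G3) and treatment, with filled circles for females and open triangles for males. At D5 the sham mice lie above the irradiated mice in G1 for miR-125a-5p and miR-125b-5p, while in G3, for miR-125b-5p, 3 of the 4 sham females lie below all irradiated mice.

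At M1 in C57Bl/6, the time with the most mice, both miR-125 members were lower after irradiation. miR-125a-5p had 7.83, 9.46 and 10.49 in 68 irradiated mice and 8.37, 9.77 and 10.69 in 32 sham mice, with 52 of 68 below the sham median and a difference of -0.40 (SE 0.10, adjusted p = 0.00383). miR-125b-5p had 12.82, 14.25 and 15.32 against 13.35, 14.59 and 15.76, with 51 of 68 below the sham median and a difference of -0.42 (SE 0.11, adjusted p = 0.00443). These are 24.4% and 25.5% lower levels, with ranges that overlap almost fully. Both passed with the mouse as a replicate block (adjusted p = 0.0161 and 0.0117). Neither passed without the G1 females (-0.30, adjusted p = 0.218 and -0.32, adjusted p = 0.237), and miR-125a-5p missed narrowly without the G3 females (0.0502) and miR-125b-5p without the G1 males (0.0749).

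From M2 on, the calls in C57Bl/6 fell on each member but miR-125a-5p. At M2 miR-100-5p had 0.23, 3.85 and 6.45 in 36 irradiated mice and 0.23, 4.31 and 7.53 in 16 sham mice, with a difference of -1.09 (SE 0.33, adjusted p = 0.0361) that had an adjusted p of 0.0944 with a mean for each set and sex and of 0.617 with the mouse as a replicate block. It also missed the threshold without the mice that have no PT sample (0.0601), without the G1 females (0.733) and without the G1 males (0.512). On log2 CPM the difference was smaller, -0.46 between the medians, and -0.54 in females and -0.38 in males between the means. At M4, with 29 irradiated and 16 sham mice, miR-99b-5p had 6.86, 8.07 and 8.97 against 7.67, 8.52 and 9.37, a difference of -0.60 (SE 0.17, adjusted p = 0.0116). At the same time miR-125b-5p had 13.20, 13.98 and 15.09 against 13.79, 14.55 and 15.77, a difference of -0.54 (SE 0.16, adjusted p = 0.0219). The 2 calls of M4 passed with the mouse as a replicate block and with a mean for each set and sex, and 25 and 24 of the 29 irradiated mice were below the sham medians. Without the G1 females (adjusted p = 0.18 and 0.243) or the G1 males (0.131 and 0.271), which leaves one sex after M1, neither passed.

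At M5, with 21 irradiated and 16 sham mice, the paralogues miR-99a-5p and miR-99b-5p were both lower. miR-99a-5p had 3.53, 5.46 and 6.32 against 4.12, 6.07 and 7.76, with 20 of 21 irradiated mice below the sham median and a difference of -0.97 (SE 0.28, adjusted p = 0.024). miR-99b-5p had 6.83, 7.92 and 9.05 against 7.17, 8.70 and 10.16, with 18 of 21 below the sham median and a difference of -0.65 (SE 0.18, adjusted p = 0.0128), 36.2% lower. With the mouse as a replicate block the adjusted p was 0.0773 and 0.0568, and without the 4 mice that have no PT sample it was 0.0942 for both. Without the G1 females the differences were -0.29 and -0.25 (adjusted p = 0.943 and 0.937). All irradiated mice at these late times are those that were still sampled, and all belong to G1 in C57Bl/6 and G2 in C3H.

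With limma-voom in place of edgeR, 2 of the 4 C3H and 7 of the 11 C57Bl/6 calls remained. Those lost were miR-99a-5p and miR-100-5p at C3H D2 (adjusted p = 0.064 for both), miR-125a-5p at C57Bl/6 D2 (0.0623) and D5 (0.168), miR-100-5p at M2 (0.534) and miR-99a-5p at M5 (0.071). The random replicate block of the mouse was fitted in limma-voom too. Calls lost with that block therefore cannot be credited to repeated sampling alone.

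When the reads of miR-99a-5p and miR-100-5p were added as one count, the sum passed at C3H D2 (-0.84, adjusted p = 0.0218), C57Bl/6 D2 (-0.77, adjusted p = 0.0377) and C57Bl/6 M5 (-0.88, adjusted p = 0.0442), and not at C57Bl/6 M2 (-0.60, adjusted p = 0.190). miR-100-5p holds 22.6% of the reads of the pair, so the sum mainly follows miR-99a-5p.

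The response to irradiation did not pass the test of a difference between the strains for any member over the 6 shared times (F test of edgeR, adjusted p = 0.988 for miR-99a-5p, 0.841 for miR-100-5p, 0.98 for miR-99b-5p, 0.671 for miR-125a-5p and 0.371 for miR-125b-5p). Of all miRNA, 4.35% passed. let-7a-5p, whose gene let-7a-2 lies between those of miR-100 and miR-125b-1, was among them (adjusted p = 0.0204).

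The other RNAs of the 3 clusters were tested in the same contrasts. In these 14, 4 of 140 tests of the 10 cluster partners and opposite arms passed, none in C3H. With the related miRNA outside the clusters the count was 4 of 196. They were let-7c-5p at C57Bl/6 D2 (-0.80, SE 0.23, adjusted p = 0.0113) and, at C57Bl/6 D5, let-7a-5p (-1.50, SE 0.23, adjusted p = 1.37e-08), let-7c-5p (-0.89, SE 0.23, adjusted p = 0.00171) and let-7e-5p (-1.03, SE 0.20, adjusted p = 6.08e-06). Over all miRNA in the 14 contrasts, 1.91% of tests passed with irradiated mice lower, and 7.87% did at C57Bl/6 D5. The let-7 differences at D5 are over both sets, between which 17.6% of all miRNA differed there. The median of the 10 was below 0 in 11 of the 14 contrasts, from -0.56 to 0.07, and that of the longer list in all 14, from -0.38 to -0.01. let-7c-5p and let-7a-5p are also made from other loci. let-7e-5p lies between miR-99b-5p and miR-125a-5p and shares no seed with either, as its sequence shows.
let-7e-5p: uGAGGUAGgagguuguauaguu

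Markers of cell types that release miRNA into plasma moved in the same contrasts, for which the share of all miRNA that passed is given above. Of 6 leukocyte miRNA, 4 were lower in irradiated mice at C3H D2, 3 at C3H D5, 1 at C3H M1, 2 at C57Bl/6 D2 and 4 at C57Bl/6 D5, and 1 was higher at C57Bl/6 M2. miR-150-5p, a lymphocyte miRNA, fell by 1.70 at C3H D2 (SE 0.14, adjusted p = 4.5e-27) and by 1.55 at C57Bl/6 D2 (SE 0.15, adjusted p = 9.7e-23). The summed share of these 6 in the reads ranged from 0.385% to 1.19% in irradiated and from 0.520% to 3.61% in sham C3H mice at D2, and from 0.222% to 1.39% and 0.558% to 1.98% in C57Bl/6. Of the 6 stroma and smooth muscle miRNA, 5 of 84 tests passed, all lower and all in C57Bl/6, and the list's median was below 0 in all 14 contrasts (-0.51 to -0.09). They were miR-199a-5p at D2 (-0.99), D5 (-0.94) and M4 (-0.92), miR-214-3p at M1 (-0.58) and miR-199a-3p at M5 (-0.59). The summed share of the stroma list overlapped between groups, at 0.455% to 2.73% in irradiated and 0.445% to 2.67% in sham C57Bl/6 mice at D2.

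The 2 liver miRNA moved in opposite directions early. miR-122-5p was lower in irradiated mice at C3H D2 (-1.06), C57Bl/6 D2 (-1.69) and C57Bl/6 D5 (-1.74), and miR-192-5p was higher at the same 3 times (0.72, 0.92 and 0.75), all past the threshold. Later, miR-122-5p was higher at C3H M1 and C57Bl/6 M3, and both were higher at C57Bl/6 M2, M4 and M5. At C57Bl/6 M4 and M5 the median of their summed share was 1.81% and 2.56% of reads in irradiated mice. In sham mice it was 0.704% and 0.771%. The highest share in a single irradiated mouse was 11.6% and 15.4%, against 0.954% and 1.20% in sham mice of these times. Such high shares also occurred without irradiation at other times, up to 13.997% in sham C57Bl/6 mice at M1 and 10.7% in sham C3H mice at PT. The 7 red blood cell miRNA passed in 3 of 98 tests, all higher, and held 38.7% to 68.6% of reads in irradiated and 26.8% to 61.4% in sham C3H mice at D2. Endothelial miRNA passed in 2 of 28 tests and muscle miRNA in 2 of 70, all higher, and brain miRNA in 1 of 28, higher. The markers at 0 reads in every sample of a group were miR-208a-3p of the muscle list, in sham C57Bl/6 mice at D5 and M4, and miR-124-3p of the brain list, in sham C57Bl/6 mice at M1. Both muscle calls were miR-208a-3p against these sham groups at 0 reads, at C57Bl/6 D5 (3.46) and M4 (4.06). At M4, 4 of 5 muscle miRNA were below 0, with a list median of -0.62. The part of leukocyte, stromal and liver miRNA in the members' differences was not tested.

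Sex made a detectable difference before irradiation for 1 member in 1 strain. miR-99a-5p of C57Bl/6 was lower in females than in males by -0.65 (SE 0.17, adjusted p = 0.00276), where 14.7% of all miRNA passed. This came with the G3 males, whose 24 mice had 5.37, 6.80 and 8.32, with a mean of 6.85 ± 0.64 (SD), against means of 5.88 in G1 males and of 5.82 and 5.93 in the females of the 2 sets. In G1 alone the difference was 0.01 (adjusted p = 0.988). In C3H no member passed by edgeR (adjusted p = 0.354 to 0.977), where 14.5% of all miRNA passed. In G4 alone, females had more miR-99a-5p by 0.58 (adjusted p = 0.023).

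Irradiated mice that still had a sample at the last time of their strain were compared, at D2, D5 and M1, with those that had none. Sets G3 and G4, which have no later samples at all, were kept out of this comparison. The comparison shows only whether a mouse was sampled again, since the labels give no survival time. Among the members only miR-100-5p at C57Bl/6 D5 passed (3.28, SE 0.66, adjusted p = 0.000439). The 4 mice sampled at M6 had 2.34, 2.91, 4.11 and 8.40, and 12 others had a lowest, median and highest of 0.23, 2.43 and 5.49. The value of 8.40 came from 58 reads of miR-100-5p in the shallowest library of the series (206490 reads), which had 5 reads of miR-99a-5p, and miR-100-5p had more reads than miR-99a-5p in only 10 samples of the series. Without that mouse no member passed. The share of all miRNA that passed was 0.207% at C57Bl/6 D2, 0.207% at C57Bl/6 D5, 0% at C57Bl/6 M1, 0.207% at C3H D2 and 0% at C3H D5 and M1 (by edgeR at an unadjusted p under 0.05, 23 miRNA at C57Bl/6 M1 and 18 and 17 at the last 2).

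On TMM-scaled levels, the pair with the highest correlation was the one whose precursors lie closest. Over the 96 PT mice of a strain, miR-99b-5p and miR-125a-5p, which lie within 692 bases on chromosome 17, had a Pearson's r of 0.55 in C3H and 0.67 in C57Bl/6 (Spearman's rho 0.48 and 0.65). The permutation p was 1e-05 in both, the smallest that 100000 resamples can give (adjusted over 20 relations, 0.0001). Leaving out the 2 mice farthest from the median gave 0.51 and 0.63, and r within set and sex was 0.63 and 0.68. For comparison, the median r was 0.02 over the 13366 pairs of 164 miRNA with a mean log2 CPM of at least 5. These include the members except miR-100-5p, and the cut lies below the level of both miRNA of the pair. Of those pairs, 8.78% in C3H and 1.65% in C57Bl/6 had an r at least as high. let-7e-5p, from the middle of the same cluster, had an r of 0.64 with miR-99b-5p in C3H and 0.41 in C57Bl/6.

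miR-99a-5p and miR-100-5p, which share a seed and all but 1 base but lie on different chromosomes, had an r of 0.33 in C3H (rho 0.35, adjusted p = 0.00432) and 0.32 in C57Bl/6 (rho 0.35, adjusted p = 0.00573). Within set and sex it was 0.17 and 0.21. The seed pair miR-125a-5p and miR-125b-5p had an r of 0.33 in C3H (rho 0.34, adjusted p = 0.00432) and 0.21 in C57Bl/6 (rho 0.21, adjusted p = 0.0742). For the pairs of the long clusters, miR-99a-5p and miR-125b-5p had an r of 0.15 and -0.19, and miR-100-5p and miR-125b-5p of 0.26 and 0.21. Within set and sex these were 0.29 and 0.07, and 0.45 and 0.36. miR-125b-5p is made from both of those clusters, and its reads cannot be divided between them. On log2 RPM, which scales by the total count instead of TMM, r was higher in 19 of the 20 relations and miR-99b-5p with miR-125b-5p turned from -0.06 to 0.41 in C3H. The highest pair of C3H was then miR-125a-5p with miR-125b-5p (0.72, against 0.70 for miR-99b-5p with miR-125a-5p), so both the size and the order of r depend on the scaling.

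**Figure D5:**
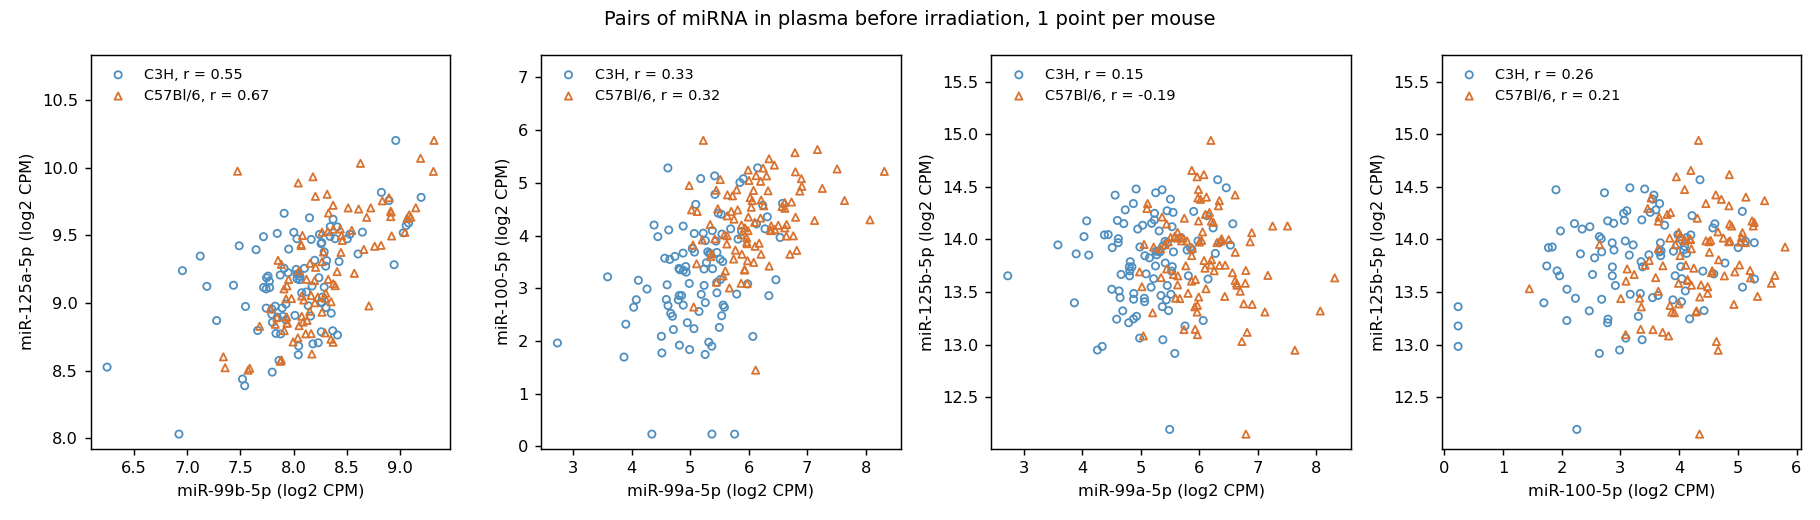
Level (log2 CPM) of one miRNA against another in each of the 96 C3H and 96 C57Bl/6 mice before irradiation, for 4 pairs, with Pearson's r per strain in the legend. The neighbours miR-99b-5p and miR-125a-5p form the tightest cloud (0.55 and 0.67), and the pair miR-99a-5p and miR-125b-5p shows no common slope (0.15 and -0.19).

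The miRNA with the most similar pattern differed from member to member, among 160 miRNA with a mean log2 CPM of at least 5 and over 192 PT mice with the strain means removed. miR-125b-5p was nearest to miR-199a-3p and miR-199b-3p (r = 0.80 for both, which have one mature sequence, so that their reads cannot be told apart) and to miR-29c-3p (0.57). miR-99b-5p was nearest to miR-26a-5p (0.68), miR-128-3p (0.60) and miR-191-5p (0.58), and miR-125a-5p to miR-26a-5p (0.58), miR-31-5p (0.50) and miR-322-5p (0.49). miR-99a-5p was nearest to miR-181a-5p (0.61), miR-181c-5p (0.59) and miR-181b-5p (0.55), with values of 0.38, 0.38 and 0.39 within set and sex. miR-100-5p, the member with the fewest reads, had the lowest values, 0.40 with miR-181c-5p, 0.37 with let-7c-5p and 0.36 with miR-30e-3p, and 0.24, 0.22 and 0.28 within set and sex. These values describe the PT samples, which share depth and scaling.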

How the data were processed

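Plasma miRNA was measured in 899 mouse samples. The authors deposited one table of counts, whole reads per mature miRNA and sample, with no normalization. Per the study's methods, 25 µL of plasma were extracted, libraries were amplified over 22 cycles, reads were trimmed and aligned to mouse miRNA (mm10) with Illumina's BaseSpace Small RNA application, and haemolysed plasma and shallow runs had been left out. The methods do not say whether molecular identifiers were counted. Strain, sex, treatment, time point, mouse and set were read from the labels. No 2 samples were identical.

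In R 4.3.3, edgeR 4.0.16 was used with TMM factors (0.372 to 1.59) and filterByExpr, which kept 483 miRNA with 99.99% of all reads. A quasi-likelihood fit gave each of 32 groups of strain, treatment and time a mean (867 residual degrees of freedom). Adjusted p-values are Benjamini-Hochberg over the 483 miRNA of a contrast, with a threshold of 0.05. Contrasts were irradiated minus sham at each of 14 combinations of strain and time, strain at PT, sham mice over time, strain by irradiation, sex at PT and later sampling. Nothing in the labels ties mice to cages or litters, and mice are the replicates. Correlations used 100000 permutations, two-sided, in scipy 1.17.1. The procedure was tested on simulated counts.

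Samples of one mouse were slightly more alike than those of different mice (mean correlation 0.0813 over 1962 pairs against -0.00082, after removal of group means), so the mouse, numbered in the labels, was a replicate block in alternatives, in limma-voom where the block was random. The others were limma-voom (limma 3.58.1), DESeq2 1.42.0 and its size factors, the study's normalization (quantile-normalized log2 RPM) with limma, other filters, miR-99a-5p and miR-100-5p summed, sex and set as covariates, only the groups compared, and leaving out the mice with no PT sample. Means for each set and sex, fits without a set and sex, sets alone and the difference between sets were added after seeing the data.

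The named miRNA were the 5 members, their cluster partners and opposite arms with related miRNA, marker lists (red blood cells, leukocytes, stroma and smooth muscle, endothelium, liver, muscle, brain) and the 3 miRNA other than members most correlated with each member. Members and lists were chosen with earlier results of these data known. Mature sequences are from RefSeq, matched by name for 1623 of 1915 miRNA, and gene positions from GENCODE M21.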

Additional observations from a re-analysis of the deposited data

Results flagged for a closer look

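In C57Bl/6 mice at D5, the difference between irradiated and sham mice was not the same in sets G1 and G3, by the test of the difference itself in edgeR. The difference in G3 minus that in G1 was 1.49 for miR-125a-5p (adjusted p = 1.91e-05), 1.46 for miR-125b-5p (adjusted p = 0.000129) and 1.19 for miR-99b-5p (adjusted p = 0.00509), all on the log2 scale. In G1 the irradiated mice were lower for the 3 miRNA (-1.15, -0.75 and -0.86), and in G3 the values were 0.35, 0.70 and 0.32. The test was chosen after the sets had been seen to differ, and 17.6% of all miRNA passed it at this time point. Dixon's test for a sample that stands apart was run for each member in the 8 sets of 4 to 10 samples, which were the irradiated C57Bl/6 mice of M6 and 7 divisions of irradiated mice by later sampling. It flagged no sample in the 40 combinations. With 4 values the test flags only a very wide gap, so it cannot exclude an outlying sample there. It did not flag mouse 1046 at C57Bl/6 D5, whose miR-100-5p of 8.40 stood beside 2.34, 2.91 and 4.11. The call by later sampling was lost without that mouse. Larger groups were not examined.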

How the results depend on the processing

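For single members, 554 values under an alternative kept their side of the threshold, 99 lost the call, 50 gained one and 5 reversed. A change of direction was counted as reversed only where the main fit or the alternative passed. The 4 irradiation calls of C3H were 2 with limma-voom, with the study's normalization and limma and with the mouse as a random replicate block, and 0 with the mouse as a fixed replicate block (change from its own PT sample), without the G2 females and without the G2 males. The 11 calls of C57Bl/6 were 7 with limma-voom, 1 with the fixed replicate block, 6 with only the 2 groups compared, 1 without the G1 females, 6 without the G1 males and 17 without the G3 males. With G3 and G4 alone, the calls at D2, D5 and M1 were 0 against 3 in C3H and 1 against 6 in C57Bl/6, where the fit has fewer mice, and 8 of 15 C57Bl/6 differences were below 0. That setting reversed miR-125a-5p (0.38, adjusted p = 0.158) and miR-125b-5p (0.73, adjusted p = 0.00825) at C57Bl/6 D5, miR-99a-5p between the sexes in C3H (0.58) and miR-125b-5p between the strains (-0.26), and G1 and G2 alone turned miR-99a-5p between the sexes of C57Bl/6 to 0.014. With every fit of all mice, 27 to 29 of 30 C3H and 36 to 40 of 40 C57Bl/6 differences were below 0.

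The single sex call of C57Bl/6 became 0 calls with limma-voom, the random replicate block and G1 and G2 alone, 2 with DESeq2, its size factors, no filter, a mean log2 CPM of at least 5 and the summed pair, and 3 with G3 and G4 alone. G3 and G4 alone gave 1 sex call in C3H against 0. The single call by later sampling became 0 with limma-voom, the study's normalization, the filter at 5, the summed pair and the random replicate block, and was 0 to 1 when single C57Bl/6 mice of D5 were left out (0 without mouse 1046). The filter at 5 removes miR-100-5p and the sum replaces it, so its call could not appear in those settings.

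Across PT mice, log2 RPM of the total count gave an r of 0.41 for miR-99b-5p with miR-125b-5p in C3H, reversed, and brought past the threshold miR-99a-5p with miR-125b-5p (0.41) and miR-100-5p with miR-125a-5p (0.23) in C3H, and in C57Bl/6 miR-99a-5p with miR-99b-5p (0.51) and with miR-125a-5p (0.47), miR-100-5p with miR-125a-5p (0.29) and with miR-125b-5p (0.39), and miR-125a-5p with miR-125b-5p (0.47). DESeq2's size factors shifted the median of all miRNA by up to 0.103 in an irradiation contrast. The causes of these changes were not tested.

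Depth limits miR-100-5p most, since 3 reads are 2.03 CPM at the median depth and 32 samples have 0 reads. Irradiated groups after M1 hold one set and the mice still sampled, and terminal samples, which the methods say were taken from the heart, are not marked in the labels.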
